A study of Mus musculus with 6 samples.

Results

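Hox genes encode homeodomain transcription factors that give cells their position along the head-to-tail axis. This section describes 38 mouse Hox genes, chosen by name as the members of the 4 Hox clusters, among 55416 genes counted in each library. The family was picked after Hox counts had been seen in these libraries, so which genes are on or silent, and at what level, is description without a test. Within a cluster, a gene with a low paralog number lies toward the 3' end and begins to be expressed near the hindbrain, while one with a high number lies toward the 5' end and is used further back in the trunk and tail. The spinal cord and hindbrain keep such a code after birth. The cerebral cortex and the rest of the forebrain form in front of the domain of Hox expression and are known for its absence.

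RNA came from oligodendrocyte precursor cells, the dividing progenitors of myelinating cells, which according to the labels were taken from mouse cortex at postnatal day 11. The control group had the genotype Pdgfra-Cre:Ift88 fl/wt; RosaEYFP and the cKO group Pdgfra-Cre:Ift88 fl/fl; RosaEYFP, with 3 samples each. Both groups thus carried Cre under the promoter of Pdgfra, a growth factor receptor of these precursors, together with the EYFP reporter, and the controls still had 1 floxed copy of Ift88, a gene needed to build the primary cilium. Each sample pooled the cells of 4 to 6 mice, so n counts pools, and p-values measure the spread between them.

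In 5 libraries the total was 11773548 to 13909236 counts, and in cKO replicate 2 it was 568509. That library is set apart throughout, and "the 5 deeper libraries" leaves it out. Levels are CPM, that is counts scaled to the library total, and a gene is called detected at 20 counts or more. A count of 0 allows a level of up to 0.216 to 0.255 CPM in the deeper libraries and of up to 5.28 CPM in cKO replicate 2, for counting error only. Between pairs of control libraries, 831 to 1027 genes had 0 counts in 1 library and at least 100 in the other, and 1 or 2 of these were Hox genes. Ift88 itself had 143, 32 and 167 counts in the control libraries and 1, 0 and 305 in cKO replicates 1 to 3. The floxed exons are not named in the sources used here, and a 3' tag outside the deleted part checks nothing about the genotype.

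The deposited coordinates (GRCm39) place Hox cluster a on chromosome 6 from 52139397 to 52237788, b on chromosome 11 from 96085142 to 96259082, c on chromosome 15 from 102829538 to 102945278 and d on chromosome 2 from 74498654 to 74595486, each span running over the genes described here. The 10 genes of cluster a are on the minus strand and the other clusters are on the plus strand. Vertebrate Hox promoters are rich in CpG dinucleotides, a feature that goes with binding by Polycomb repressors and their trithorax opponents. Promoter windows of 300 bases (250 before the start and 50 after it) were matched for 22 of the 38 genes in RefSeq on GRCm38.p6, a different build from that of the counts. Shown first are the windows of Hoxb8 and Hoxa5, the Hox genes with the highest mean level, then those of the neighbours Hoxd9 and Hoxd10, of which the first was detected in all 5 deeper libraries and the second had no counts. CpG dinucleotides are in capitals, and each sequence reads 5′ to 3′ on the strand of the gene.
Hoxb8 (chr11:96281655-96281954, plus strand): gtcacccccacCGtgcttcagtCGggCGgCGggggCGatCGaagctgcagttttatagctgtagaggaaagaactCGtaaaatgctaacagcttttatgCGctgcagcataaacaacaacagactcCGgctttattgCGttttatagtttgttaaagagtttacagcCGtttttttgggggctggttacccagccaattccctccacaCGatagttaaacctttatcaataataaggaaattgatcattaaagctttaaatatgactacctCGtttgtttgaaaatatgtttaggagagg
Hoxa5 (chr6:52204538-52204837, minus strand): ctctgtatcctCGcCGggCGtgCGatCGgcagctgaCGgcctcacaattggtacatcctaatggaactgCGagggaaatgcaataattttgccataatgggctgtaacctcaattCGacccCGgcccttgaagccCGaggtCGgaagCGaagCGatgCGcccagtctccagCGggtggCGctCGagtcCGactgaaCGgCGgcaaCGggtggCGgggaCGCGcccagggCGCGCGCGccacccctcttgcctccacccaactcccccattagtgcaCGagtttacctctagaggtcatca
Hoxd9 (chr2:74697513-74697812, plus strand): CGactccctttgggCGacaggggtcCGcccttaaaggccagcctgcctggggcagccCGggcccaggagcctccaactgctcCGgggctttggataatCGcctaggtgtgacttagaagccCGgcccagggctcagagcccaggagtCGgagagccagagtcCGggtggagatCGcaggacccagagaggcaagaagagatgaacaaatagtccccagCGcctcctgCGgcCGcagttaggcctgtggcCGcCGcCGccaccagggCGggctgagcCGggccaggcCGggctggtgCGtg
Hoxd10 (chr2:74691641-74691940, plus strand): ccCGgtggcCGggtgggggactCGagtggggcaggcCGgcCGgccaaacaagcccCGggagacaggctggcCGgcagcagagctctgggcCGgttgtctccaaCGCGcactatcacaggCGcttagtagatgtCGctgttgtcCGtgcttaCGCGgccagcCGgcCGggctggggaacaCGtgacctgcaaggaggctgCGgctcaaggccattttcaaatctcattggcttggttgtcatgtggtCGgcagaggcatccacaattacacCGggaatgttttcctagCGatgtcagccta

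Windows of silent genes were about as rich in CpG as windows of genes that were on. Hoxd9, detected in all 5 deeper libraries, has 20 CpG in its window, and Hoxd10, with 0 counts in all 6 libraries, has 22. Over the family, the median was 14 CpG in 11 windows of genes detected in all 5 deeper libraries and 15 in 9 windows of 7 genes detected in none of them, against 7 in all 32851 promoter windows of the table. The Hoxb8 window is comparatively poor in G and C (42.3%) and holds TATAAA 2 times and TTTATNG, the letters bound by the caudal-type CDX factors, 3 times, counting both strands and overlaps. TTTATNG was found in 2 of 24 Hox windows (Hoxb8 and Hoxd4) and in 10.9% of all windows, TATAAA in 4 of 24 and in 13.6%. The letters TGATNNAT, bound by pairs of a Hox protein and a PBX partner, were found in 4 Hox windows (Hoxa2, Hoxb1, Hoxb8 and one of Hoxd11) and in 8.85% of all windows. These are matches of letters, not sites shown to be used.

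Of the 38 Hox genes, 19 were detected in every one of the 5 deeper libraries, 8 in some of them and 11 in none. Counts followed the paralog number. Among the 22 genes of paralog groups 1 to 8, 17 were detected in all 5 deeper libraries, 4 in some and 1 in none. In group 9 it was 2 of 4 genes in all 5 and the other 2 in some. Among the 12 genes of groups 10 to 13, 0 were detected in all 5, 2 in some and 10 in none. Values were rarely in between: of 190 gene-by-library values in the deeper libraries, 69 were 0, 4 were from 1 to 19 and 117 were 20 or more.

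**Figure D1:**
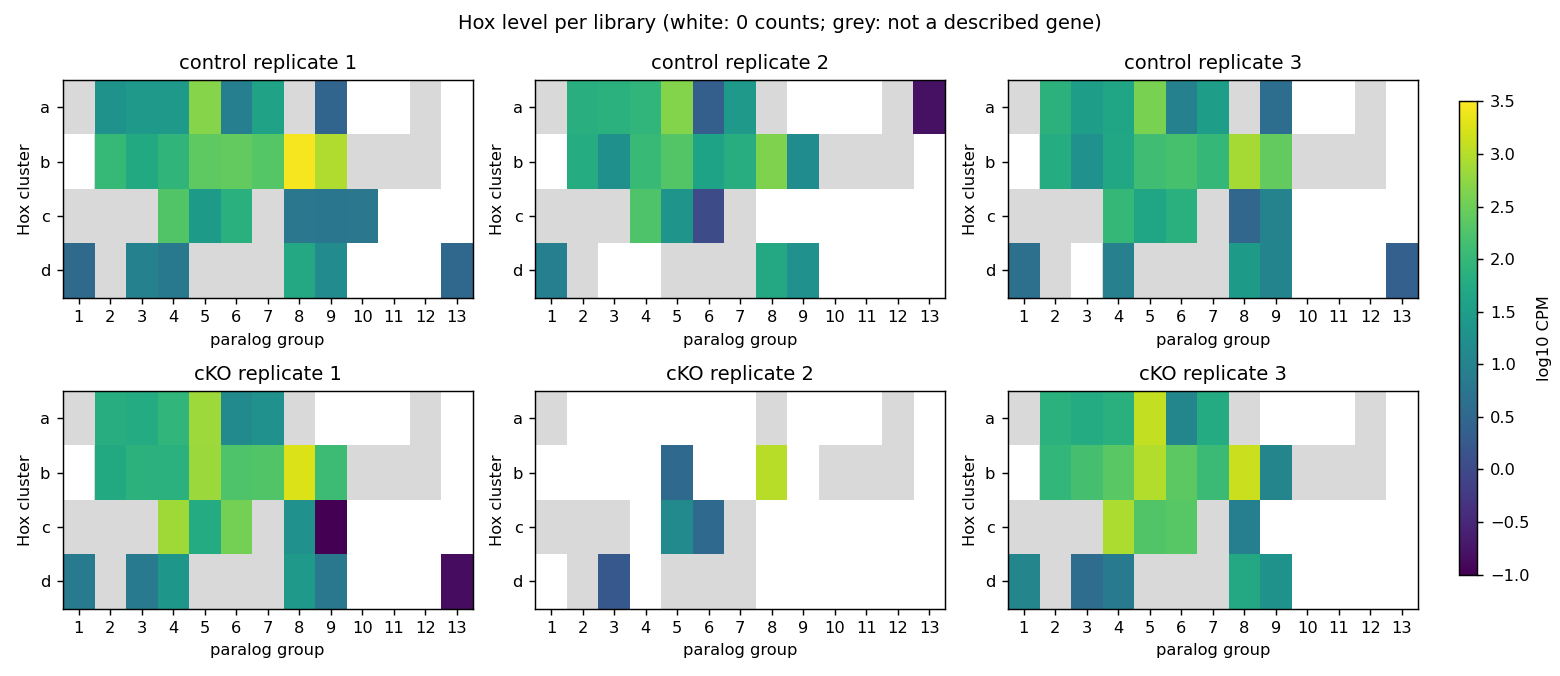
Level of each Hox gene in each library, as log10 CPM, with Hox clusters a to d as rows and paralog groups 1 to 13 as columns. White cells have 0 counts and grey cells are not among the 38 genes described. Colour runs from group 1 to group 9 in the 5 deeper libraries and is all but absent in groups 10 to 13, and Hoxb8 is the single strong cell of cKO replicate 2.

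The point at which detection stopped differed by cluster. In all 5 deeper libraries the highest paralog number detected was 7 in cluster a, 9 in b, 5 in c and 9 in d. In any of them it was 9 in a, 9 in b, 10 in c and 13 in d. The limit of cluster c rested on control replicate 2, without which it was 8. Beyond group 9 there were 3 genes with any count. Hoxc10, a lumbar-level gene of motor neuron patterning, had 83 counts in control replicate 1 and 0 elsewhere. Hoxd13, the most posterior gene of its cluster, best known from digits and the urogenital tract, had 46, 0 and 32 counts in the control libraries and 2, 0 and 0 in cKO replicates 1 to 3. Hoxa13 had 2 counts in control replicate 2. Hoxa10, Hoxa11, Hoxb13, Hoxc11, Hoxc12, Hoxc13, Hoxd10, Hoxd11 and Hoxd12 had 0 counts in all 6 libraries. At the anterior end Hoxb1, a gene of hindbrain rhombomere 4, also had 0 counts in all 6, and Hoxd1 had 50, 112 and 61 counts in the control libraries and 97, 0 and 129 in cKO replicates 1 to 3.

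Hoxb8, which in the mouse is required for normal grooming and for sensory circuits of the dorsal spinal cord, was the most abundant Hox gene on average. It had 2696, 423 and 782 CPM in control replicates 1 to 3 and 1821, 1036 and 1371 CPM in cKO replicates 1 to 3. It was the single Hox gene detected in cKO replicate 2, with 589 counts, and the groups overlapped. In the deeper libraries its count ranked between 24 and 392 among all genes. A 3' tag count does not scale with transcript length, so levels can be set beside each other between genes without a length correction. On this scale the next highest means over the 5 deeper libraries were 650 CPM for Hoxa5, which patterns the neck, lung and phrenic motor neurons, 439 CPM for Hoxb5, 419 CPM for Hoxc4 and 269 CPM for Hoxb9. The range over libraries was wide for several of these: the highest of the 5 deeper libraries was 3.13 times the lowest for Hoxa5, 7.16 for Hoxb5, 8.94 for Hoxc4 and 83.7 for Hoxb9.

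In each of the 5 deeper libraries cluster b carried more Hox counts than any other cluster, with 47.8% to 82.2% of them, and cluster d the fewest. The summed level of cluster b was 4588, 928 and 1561 CPM in the control libraries and 3185, 1040 and 3159 CPM in cKO replicates 1 to 3. Cluster a had 596, 729 and 599 CPM against 924.5, 0 and 1514 CPM. Cluster d lay between 55.4 and 94.7 CPM in all 5 deeper libraries, with Hoxd8 and Hoxd9 as its strongest genes. Hoxd8 had 52.2, 52.6 and 28.9 CPM in the control libraries and 27.8 and 51.8 CPM in cKO replicates 1 and 3, and Hoxd9 14.7, 18.7 and 10.6 CPM against 6.33 and 20.9 CPM. Both overlapped between the groups.

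The anterior genes were at intermediate levels. Hoxa2, which sets the identity of the second branchial arch and of rhombomere 2, had 20.2, 68 and 78.4 CPM in the control libraries and 63.2 and 76.1 CPM in cKO replicates 1 and 3. Hoxb2, active in rhombomeres 3 to 5 and needed for facial motor neurons, had 102, 61.1 and 60.6 CPM against 54.9 and 96.7 CPM. Hoxa3, of the third branchial arch, had 27.2, 76.3 and 32.8 CPM against 57.7 in each of both cKO libraries. Hoxa4 had 26.1, 92.1 and 44.9 CPM against 90.4 and 70.6 CPM, and Hoxb4, a gene of the hindbrain and neck region, 87.2, 110 and 49.6 CPM against 75.1 and 222 CPM. None of these 5 genes separated the groups. Each had 0 counts in cKO replicate 2.

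Among genes of the middle of the clusters, Hoxb6 had 258, 40.3 and 156 CPM in the control libraries and 186 and 236 CPM in cKO replicates 1 and 3. Hoxb7 had 208, 64.5 and 101 CPM against 187 and 117 CPM, and Hoxa7 38.4, 27.3 and 32.6 CPM against 18.6 and 59 CPM. All 3 overlapped between the groups, and control replicate 2 was the lowest control for each. Hoxd3 and Hoxd4 were detected in some of the deeper libraries, with 130, 0 and 0 counts and 90, 0 and 122 counts in the control libraries and with 103 and 47, and 333 and 83, in cKO replicates 1 and 3.

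For 7 of the 38 genes, some of the last 500 exon bases, where 3' tags fall, are shared with another annotated gene. Hoxa3 shares 100% of them with Hoxaas2, Hoxa7 100% with Hoxaas3, Hoxb2 100% and Hoxb3 98.6% with Hoxb3os, Hoxa4 51% with Gm29430, Hoxd4 4.4% with Gm28230 and Hoxd3 4.2% with Haglr. Counting used no strand option and by default leaves out reads that fall on 2 genes, so counts of these members may be understated. The partner is on the opposite strand for 6 of them and on the same strand for Hoxd4. All 7 had counts. None of the 11 genes detected in no deeper library shares any of these bases.

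The weight of Hox expression along the axis differed between libraries of 1 group. Control replicate 1 had 49.4% of its Hox counts in paralog group 8 and 17.2% in group 9, whereas control replicate 2 had 24.5% and 1.75%, and control replicate 3 33.3% and 11.6%. cKO replicates 1 and 3 had 2.41% and 0.527% in group 9, on either side of control replicate 2. Weighted by CPM, the mean paralog number was 7.17, 5.41 and 6.37 in the control libraries and 6.03 and 5.50 in cKO replicates 1 and 3. The cKO values lay within the range of the controls. In cKO replicate 2, 97.8% of Hox counts came from Hoxb8.

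**Figure D2:**
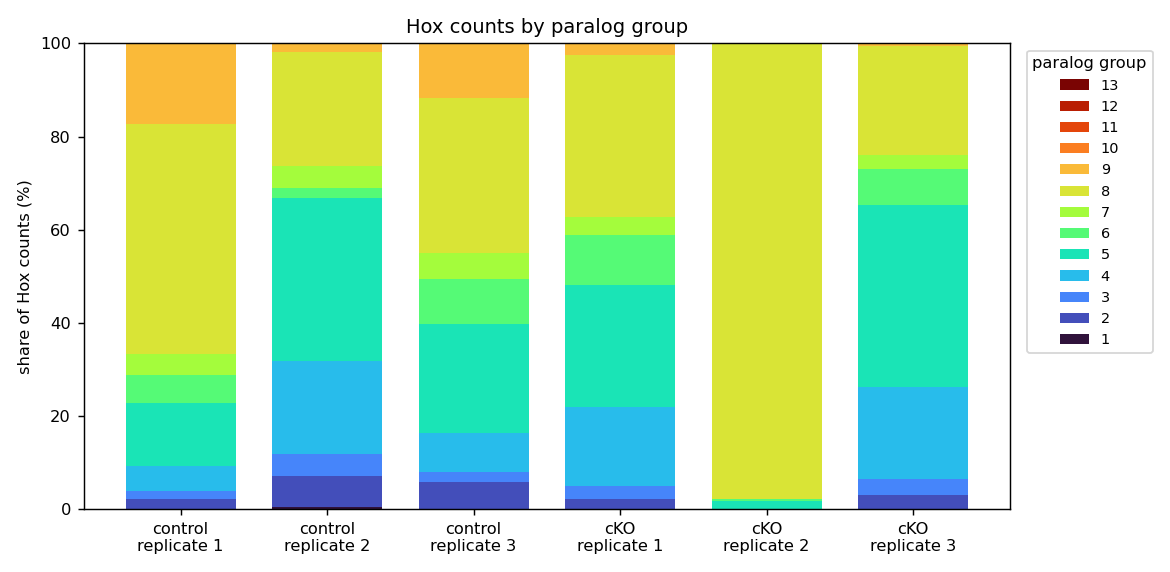
Share of all Hox counts (percent, vertical axis) in each paralog group (colours), by library. Groups 4, 5 and 8 together make up most of each bar of the 5 deeper libraries. Group 9 takes 17.2% in control replicate 1 and 0.527% in cKO replicate 3, and the bar of cKO replicate 2 is 97.8% Hoxb8.

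The labelled tissue was checked against transcription factors of the forebrain and midbrain. Of 21 listed, 10 had 0 counts in all 6 libraries, among them Emx1, Emx2 and Fezf2, which mark cortical progenitors and projection neurons. Pax6 was the single member detected in all 5 deeper libraries, with 452, 912 and 461 counts in the control libraries and 77 and 209 in cKO replicates 1 and 3, and it is used in the spinal cord as well. Lhx2, which also marks dorsal spinal interneurons, had 117, 1 and 0 counts in the control libraries and 2910, 1 and 3493 in the cKO libraries. Neurod6 had 389, 734 and 199 against 296, 0 and 8, Otx2 0, 114 and 0 against 390, 271 and 427, and Bcl11b 148, 39 and 0 against 68, 0 and 175. Single libraries held Dlx1 (138, control replicate 2), Six3 (62, control replicate 1) and Otx1 (49, cKO replicate 3).

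Summed over the 21 factors, the level was 85.6, 152 and 48.6 CPM in control replicates 1 to 3 and 285, 478 and 371.5 CPM in cKO replicates 1 to 3. Most of each cKO sum came from 1 gene. Lhx2 made up 209 and 297 CPM in cKO replicates 1 and 3, and Otx2 477 CPM in cKO replicate 2. Of 25 factors of hindbrain and spinal neurons, 18 were detected in some of the deeper libraries and 0 in all of them, and their sums were 134.6, 222 and 51.4 CPM against 116.7, 0 and 188 CPM. Both lists were at a similar level in the controls, and in all 3 cKO libraries the forebrain and midbrain sum was the higher one. Both lay far below the Hox genes, which summed to 1944 to 5581 CPM in control replicates 1 to 3 and to 5354 and 6087 CPM in cKO replicates 1 and 3. Members of the hindbrain and spinal list differed in opposite directions. Lbx1, which specifies dorsal spinal interneurons, had 640, 896 and 177 counts in control replicates 1 to 3, and 0, 0 and 76 in the cKO libraries. Evx1, a homeobox gene of ventral spinal interneurons that lies beside cluster a, had 0 counts in all 3 controls and 284, 0 and 850 in the cKO libraries. Among 15 markers of the labelled cell type, 4 were detected in all 5 deeper libraries and 5 had 0 counts in all 6, among them Sox10. Olig2 and Olig1 had 67 and 32 counts in cKO replicate 3 and 0 in every other library. The direction of these markers was mixed too. Of the 6 tested, 0 passed, where 0.0156% of all genes did (edgeR, all 6 libraries). Ptprz1 had 214.5, 160 and 53.9 CPM in control replicates 1 to 3, with 143 and 116 CPM in cKO replicates 1 and 3. C1ql1 had 92, 297 and 134.5 CPM against 20.3 and 29.1 CPM, whereas Cacng4 had 40.7, 40 and 38.6 CPM against 139 and 95 CPM and Pdgfra 0, 4.63 and 4.13 CPM against 11.1 and 10.3 CPM. In pooled cells, fewer cells of a type and less RNA per cell cannot be told apart.

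**Figure D3:**
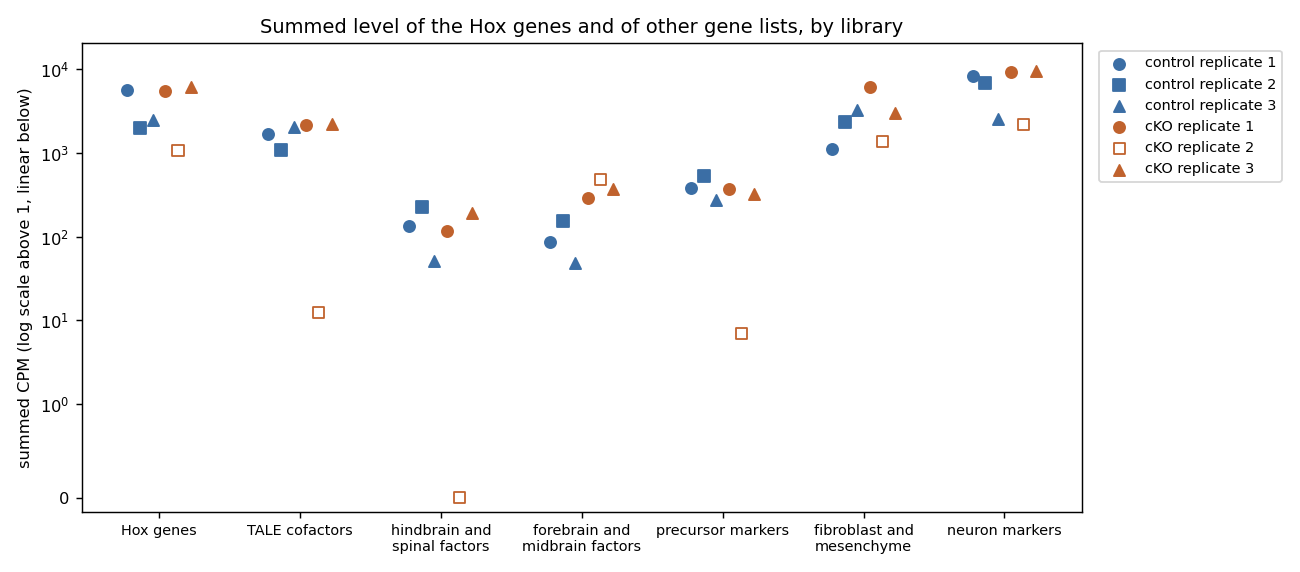
Summed CPM (vertical axis, log scale above 1 and linear below) of the 38 Hox genes and of 6 other gene lists in each library. Blue points are controls, orange points cKO, and the open square is cKO replicate 2. In the 5 deeper libraries the Hox genes lie above the forebrain and midbrain, the hindbrain and spinal, and the precursor lists.

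The cKO group was compared with the control group to ask whether the cKO genotype goes with a difference in these transcripts. Loss of the cilium, through which Hedgehog signals are received, is not measured by these counts. No Hox gene passed. With all 6 libraries, 0 of 23 Hox genes that passed the expression filter had an adjusted p under 0.05 in edgeR's quasi-likelihood test, where 0.0156% of 12833 genes did, and 1 had an unadjusted p under 0.05 (Hoxb9, lower), where 1.53% of all genes did and were lower. The other 15 Hox genes had too few counts to be tested. The median log2 fold change was 0.10 for the 23 Hox genes and -0.44 for all genes. That shift of all genes was -0.28 with RLE and -0.01 with upper-quartile scaling, and the Hox median moved with it, to 0.34 and 0.50. Without cKO replicate 2, 0 of 26 Hox genes passed, against 0.00687% of 14562 genes, and the lowest adjusted p of a Hox gene was 0.444 in edgeR.

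Without cKO replicate 2, 8 Hox genes had both remaining cKO libraries above every control: Hoxa5, Hoxa6, Hoxb3, Hoxb5, Hoxc4, Hoxc5, Hoxc6 and Hoxc8. The share of all 14562 tested genes with that order was 13.0%, against 8 of 26 here. No Hox gene had both below every control, where 12.6% of all genes did. The 8 genes belong to paralog groups 3 to 8, and 4 of them are all the genes of cluster c in those groups.

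Hoxc4, active in the neck region, had 187, 184 and 101 CPM in the control libraries and 726 and 899 CPM in cKO replicates 1 and 3. Its log2 fold change without cKO replicate 2 was 2.36 (SE 0.356, adjusted p = 0.444, edgeR), and 1.77 (SE 1.09, adjusted p = 0.9999, edgeR) with that library, which had 0 counts. Hoxb5, which takes part in enteric and vagal neural crest development, had 246, 196 and 134 CPM against 662 and 956 CPM, with 3.52 CPM, or 2 counts, in cKO replicate 2. Its log2 fold change was 2.07 without that library (SE 0.348, adjusted p = 0.448, edgeR). The controls were at 157 ± 49.1 CPM for Hoxc4 and 192 ± 56.5 CPM for Hoxb5 (SD, n = 3). For both genes the higher cKO value was in replicate 3.

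Hoxa5 had 472, 463 and 396 CPM in the control libraries and 680 and 1239 CPM in cKO replicates 1 and 3, with 0 counts in cKO replicate 2. The 3 controls spanned a narrow range (444 ± 41.4 CPM, SD, n = 3). The log2 fold change without cKO replicate 2 was 1.11 (SE 0.302, adjusted p = 0.767, edgeR), and it changed sign without cKO replicate 3, to -0.33, where the cKO group rests on replicate 1 and on the shallow library. Hoxb3, a gene of the caudal hindbrain, had 53.1, 17.9 and 19.1 CPM against 76.8 and 150 CPM.

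In cluster c the differences in level ran through neighbouring genes. Hoxc5 had 28.4, 21.4 and 45.5 CPM in the control libraries and 59, 14.1 and 193 CPM in cKO replicates 1 to 3. Hoxc6, which marks the forelimb level of the spinal cord, had 73.2, 1.1 and 70.9 CPM against 368, 3.52 and 218 CPM, and control replicate 2 stood far below the other controls. Hoxc8, used in brachial motor pools, had 6.15, 0 and 3.1 CPM against 19.1, 0 and 8.83 CPM. Summed, cluster c had 307, 206 and 230.5 CPM in the control libraries and 1172 and 1318 CPM in cKO replicates 1 and 3, and 17.6 CPM in cKO replicate 2. The corresponding sums of cluster d, 90, 80 and 55.4 CPM against 72.5 and 94.7 CPM, overlapped. Of the 26 Hox genes tested without cKO replicate 2, 5 had an unadjusted p under 0.05 and were higher (Hoxa5, Hoxb3, Hoxb5, Hoxc4 and Hoxc5), where 3.06% of all genes were, and 0 were lower, where 3.03% were. By DESeq2 on the same 5 libraries, Hoxa5, Hoxb5 and Hoxc4 passed (adjusted p = 0.0275, 1.39e-05 and 6.54e-07), where 0.876% of genes passed and were higher. The call for these 3 genes thus depends on the test and on leaving out a library.

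**Figure D4:**
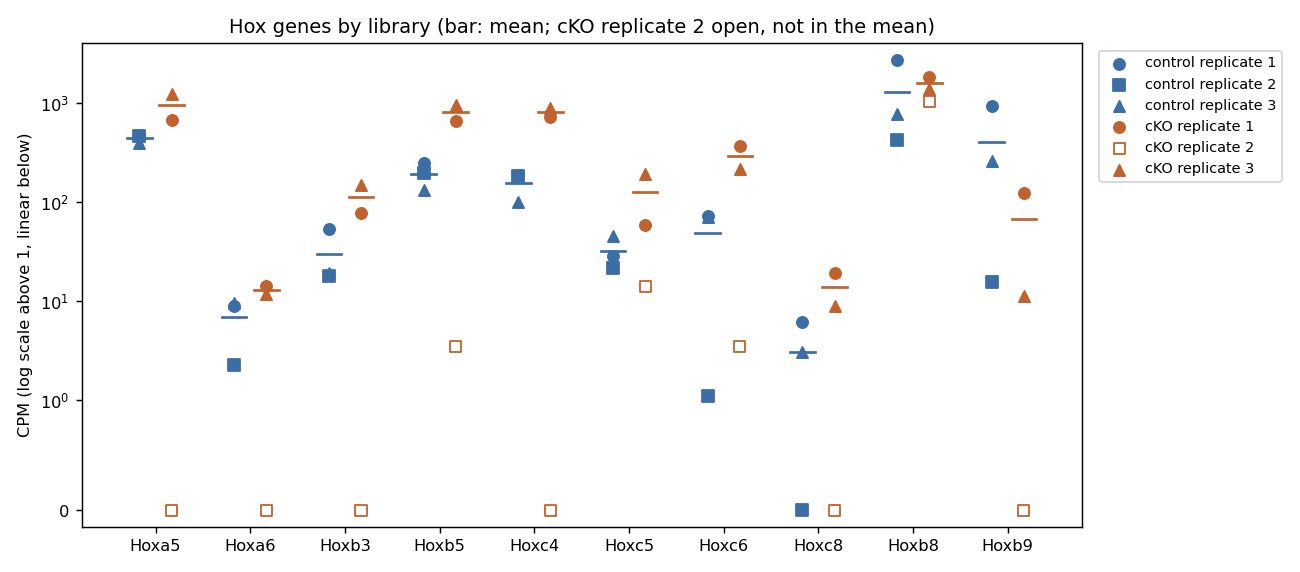
CPM (vertical axis, log scale above 1 and linear below) of the 8 Hox genes with both deeper cKO libraries above every control, and of Hoxb8 and Hoxb9, which overlap. Blue points are controls and orange points cKO, bars are means of 3 controls and of cKO replicates 1 and 3, and open squares are cKO replicate 2, which had counts for Hoxb5, Hoxc5, Hoxc6 and Hoxb8 here.

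Genes of paralog group 9 in clusters a, b and c had their highest values in control libraries. Hoxb9, a thoracic gene, had 938, 15.4 and 259 CPM in the control libraries and 123, 0 and 11.2 CPM in cKO replicates 1 to 3. Control replicate 2 lay between the cKO libraries, so the groups overlapped. Its log2 fold change over all 6 libraries was -3.14 (SE 1.40, adjusted p = 0.9999, edgeR), and -2.57 (SE 1.57, adjusted p = 0.869, edgeR) without cKO replicate 2. Hoxa9 had 40, 0 and 57 counts in the control libraries and 0 in all 3 cKO libraries, and Hoxc9, which sets the thoracic identity of motor neurons, 81, 0 and 140 counts against 1, 0 and 0. In both, as in Hoxd13, control replicate 2 had 0 counts. The summed level of the 4 genes of group 9 was 962, 34.1 and 284 CPM in control replicates 1 to 3 and 129 and 32.1 CPM in cKO replicates 1 and 3. For group 4 the sums were 307, 385.5 and 204 CPM against 915 and 1198 CPM, and for group 5 they were 747, 680 and 575.5 CPM against 1401 and 2388 CPM. In these 5 libraries both cKO sums were above every control for groups 3, 4, 5 and 6. Both were below every control for group 13, whose highest sum was 3.37 CPM. Of single tested genes, 13.0% and 12.6% had these orders, and no such share was worked out for sums of genes. The sums of group 9 overlapped.

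**Figure D5:**
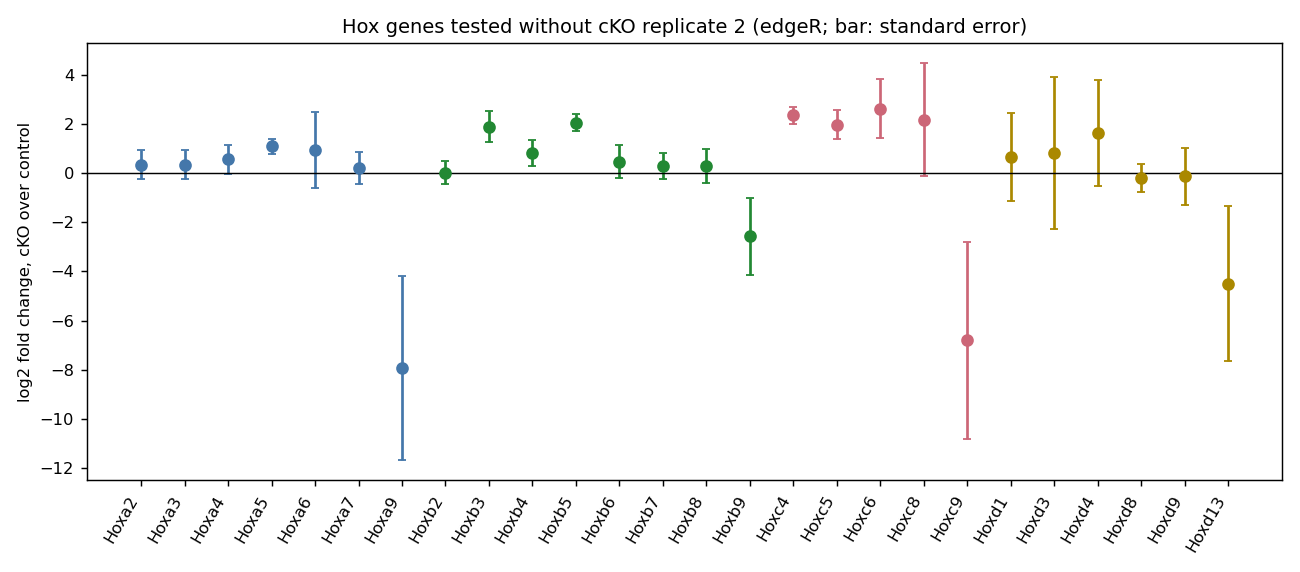
Log2 fold change, cKO over control, of the 26 Hox genes tested without cKO replicate 2, in order of cluster and paralog number (blue a, green b, red c, ochre d), with bars for the standard error of edgeR. Values from Hoxc4 to Hoxc8 and for Hoxb3, Hoxb5 and Hoxa5 lie above 0, Hoxa9, Hoxb9, Hoxc9 and Hoxd13 lie below 0 with the widest bars among them, and no gene passed.

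Over the 26 genes, 20 had a positive log2 fold change and the median was 0.53, beside 47.9% positive and a median of -0.06 over all 14562 genes. The summed Hox level was 5581, 1944 and 2446 CPM in the control libraries and 5354, 1059 and 6087 CPM in cKO replicates 1 to 3, so control replicate 1 was at the level of the higher cKO libraries. The ratio of the means, cKO over control, was 1.25 with all libraries, 1.72 without cKO replicate 2 and 2.04 when Hoxb8 was left out as well. It was 1.90 without control replicate 1 and 0.965 without cKO replicate 3, where the cKO mean rests on replicate 1 and on the shallow library. By itself cKO replicate 1, at 5354 CPM, lay above the control mean of 3323 CPM. The spread between pools was wide on the same scale, at 3323 ± 1971 CPM in the control libraries and 4166 ± 2716 CPM in the cKO group (SD, n = 3).

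Markers of other cells differed between the same libraries. All 16 neuron markers had counts, 11 of them detected in all 5 deeper libraries. The 16 markers summed to 8168, 6668 and 2482 CPM in the control libraries and to 9063 and 9381 CPM in cKO replicates 1 and 3. Single members differed in direction. Gad1 had 72.7, 70.6 and 4.5 CPM in the control libraries and 0 CPM in cKO replicates 1 and 3. Dcx had 198, 147.5 and 40.4 CPM against 686 and 621 CPM. The 10 fibroblast and mesenchyme markers, 8 of them detected in all 5, had sums of 1098, 2294 and 3205 CPM against 6084 and 2978 CPM. Among 8 neural crest and Schwann cell markers 1 was detected in all 5, with sums of 28.5 to 117 CPM and of 33.6 and 81.7 CPM, and Sox10 was at 0. Muscle and cartilage markers, with 6 of 10 at 0 in all 6 libraries, had sums of 1882 to 3132 CPM against 2449 and 2854 CPM, of which the actin gene Acta1 alone made up 1796 to 2893 CPM and 2345 and 2620 CPM. The part of such cells in the Hox differences was not tested.

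The partners that Hox proteins need were abundant. The TALE homeodomain proteins of the PBX, MEIS and PREP families bind DNA together with Hox proteins, and 8 of 10 genes of this list were detected in all 5 deeper libraries. Meis1 had 500, 279.5 and 842 CPM in the control libraries and 662 and 650 CPM in cKO replicates 1 and 3, and the groups overlapped. Pbx3 had 374, 234 and 199 CPM against 439 and 459 CPM. None of 9 tested passed (edgeR, with and without cKO replicate 2), where 0.0156% and 0.00687% of all genes did. In cKO replicate 2 the list summed to 12.3 CPM, against 1069 to 2182 CPM in the others, although Hoxb8 alone had 1036 CPM there.

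None of the tested genes that set and keep the Hox code passed in edgeR with all 6 libraries. Of all 12833 genes tested, 0.0156% did, so 0 in lists this short says little about them. Of 15 regulators of Hox expression along the axis, 5 were detected in all 5 deeper libraries and 4 had 0 counts in all 6, and 0 of 11 tested passed. Rara, a retinoic acid receptor through which Hox promoters are induced, had 953, 181 and 705 counts in control replicates 1 to 3 against 426 and 610 in cKO replicates 1 and 3. The 11 trithorax-side activators, of which Ash2l and Psip1 had the highest levels (89.1 to 128 CPM and 27.3 to 103 CPM in the control libraries), had 0 of 11 past the test. The 17 Polycomb genes, which hold silent Hox genes off, were led by Rbbp4 (363 ± 91.8 CPM) and Phc2 (224 ± 82.4 CPM; SD, n = 3, controls), with 0 of 16 past the test. Of 16 Hedgehog pathway genes, 7 had 0 counts in all 6 libraries and 0 of 8 tested passed. Smo, the signal transducer in the cilium, had 113 ± 44.7 CPM in the control libraries and a mean of 141.5 CPM over cKO replicates 1 and 3.

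Other genes lie among and beside the Hox genes. Within the clusters or 50 kb of them, 63 genes without a Hox number were annotated, and 10 had 20 counts or more in some library. Hotairm1, a long noncoding RNA next to the anterior end of cluster a, had 199, 124 and 144 counts in the control libraries and 0 in all 3 cKO libraries. Its adjusted p in edgeR was 0.9999 with all libraries and 0.767 without cKO replicate 2. Evx2, a homeobox gene of spinal interneurons next to Hoxd13, was the opposite case, with 0 counts in the control libraries and 223, 0 and 520 in cKO replicates 1 to 3 (edgeR adjusted p = 0.725 without cKO replicate 2). Its relative Evx1 had the same order of groups. Hoxd10, Hoxd11 and Hoxd12, which lie between Hoxd13 and Hoxd9, had 0 counts throughout. Hoxb5os, antisense to Hoxb5, had 373, 0 and 122 counts against 316, 0 and 220, and Hoxaas3 53, 6 and 52 against 0, 0 and 77. Haglr, Gm15050, Gm29430, 5730596B20Rik and 5730585A16Rik reached 89 counts at most.

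cKO replicate 2 held fewer genes than the deeper libraries did at its depth, Hox genes among them. A count was present for 3651 genes in all, against 14047 to 16252 in the deeper libraries as deposited and 11040 to 13442 when each of these was thinned at random to 568509 counts. After thinning, 19 to 26 Hox genes still had a count and 12 to 16 had at least 20. In cKO replicate 2, 5 had a count (Hoxb8 with 589, Hoxc5 with 8, Hoxb5 and Hoxc6 with 2 each and Hoxd3 with 1) and 1 had at least 20.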

How the data were processed

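Per the labels' protocols, RNA was sequenced by QuantSeq 3' mRNA-Seq (FWD), where each read is a tag close to a polyadenylated 3' end. The authors deposited raw counts per gene, made with featureCounts 2.0.0 on the Ensembl 104 annotation of GRCm39 with no strand, overlap or multi-mapping option, per the file headers. The submitters' processing notes also list STAR, DESeq2 and FastQC, with no role given.

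Gene identifiers were matched to symbols for 52083 of 55416 genes. CPM used all counts of a library. Genes kept by filterByExpr were scaled by TMM and tested in edgeR 4.0.16 (R 4.3.3) with glmQLFit (robust) and glmQLFTest, as two-sided tests with Benjamini-Hochberg adjustment over all genes tested and a threshold of 0.05. The standard error was the log2 fold change divided by the square root of F. The script was tested on simulated data. Alternatives were other scalings, filters, DESeq2 1.42.0, the replicate block, left-out libraries and thinning. Figures used matplotlib 3.10.9.

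The members, gene lists, alternatives and naming rule were chosen with earlier results of these data known. The rule gave by sample the Hox genes detected in all 5 deeper libraries, the most posterior detected gene of each cluster, the 4 Hox genes per direction with the smallest p, the top 2 genes of each list, detected forebrain factors and detected neighbours. Other genes were named after their values were seen. 1 further Hox gene in the files is not analysed here, and some genes that the rule named are not reported here.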

Additional observations from a re-analysis of the deposited data

How the results depend on the processing

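Across 17 alternatives to the main test, 0 Hox genes passed, except that 3 passed by DESeq2 without cKO replicate 2, a setting chosen after seeing the data. The count of all genes past the threshold was 2 in the main test, 16 with RLE scaling, 0 with upper-quartile scaling, 59 by DESeq2, 23 with no filter, 1 after thinning, and 3 with a filter of 5 CPM in 3 samples. Leaving out 1 library gave 1 to 7. Without cKO replicate 2 it was 1 with TMM, RLE or upper-quartile scaling and 298 by DESeq2. At an unadjusted p under 0.05, 363 of 12833 genes were below in the main test. With the replicate number as a block, 1 gene passed with all libraries and 1 without cKO replicate 2; the cause of these differences was not tested. Samples of equal replicate number were only weakly correlated (correlations of deviations 0.0789, 0.0522 and 0.0121), although each sample correlated best with its own number. These values do not settle whether the numbers pair the samples.

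Of 10 Hox genes followed over the alternatives, Hoxa5 and Hoxb2 changed sign. The log2 fold change of Hoxa5 was 0.52 in the main test, -0.52 with the replicate block and -0.33 to 1.11 when a library was left out. That of Hoxb2 was -0.56, with 0.0193 without cKO replicate 2, and 0.0363 with RLE scaling or by DESeq2 in the same libraries. Leaving out a library gave -1.37 to 0.0193 for Hoxb2.

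Detection depended on the count asked for. The limit over any deeper library moved in cluster a to 13 at 1 count and 7 at 100, in c to 9 at 100 counts or without control replicate 1, and in d to 9 at 50 or 100 counts. Over all deeper libraries it moved in c to 6 at 1, 5 or 10 counts and to 8 without control replicate 2 (range 5 to 8), and in d to 8 at 100 counts. The number of Hox genes detected in all 5 libraries and the log2 ratio of the summed level moved by less than 1.5 times and by less than the SD of the controls (0.80). In cKO replicate 2 a count of 0 allows a level of up to 5.28 CPM.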
